A study of Mus musculus with 4 samples.

Results

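Calcium channels, calcium pumps and the genes of the internal calcium store were examined in cultured mouse aortic smooth muscle cells with and without prostaglandin E2 (PGE2). The members were every gene on the array whose symbol marks it as a voltage-gated calcium channel subunit (Cacn), ryanodine receptor (Ryr), ORAI or STIM protein, ATP-gated channel (P2rx), TRP channel of the A, C, M or V class, calcium pump (Atp2a, Atp2b, Atp2c) or IP3 receptor (Itpr), together with Slc8a1, Slc8a3, Pln, Casq1 and Casq2. This gave 82 of 27223 genes with a symbol, read by 206 probes. Of the 82, 3 were caught by their name only: Trpc4ap encodes a protein that binds a channel, and Trpc5os and Itpr3os are opposite-strand transcripts.

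All 4 cultures were aortic smooth muscle cells grown from explanted adult aorta of strain C57BL/6J, carried the genotype EP4-Tg and were kept in DMEM. EP4 is a receptor for PGE2 that acts through Gs to raise cyclic AMP. The 2 control cultures received no treatment for 24 h and the 2 PGE2 cultures were treated for 24 h, with 1 single-colour Agilent array per culture. The dose of PGE2, the promoter of the transgene and the number of animals behind a culture are not stated in the labels, and no culture without EP4-Tg was analysed, so the comparison is between treated and untreated EP4-Tg cells only. In such bulk cultures, fewer cells of a type and less RNA per cell cannot be told apart.

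Smooth muscle contracts when cytosolic calcium rises. Calcium enters through voltage-gated, ATP-gated, TRP and store-operated channels, or leaves the sarcoplasmic reticulum through IP3 and ryanodine receptors, and it is removed by pumps that refill the store or expel calcium and by sodium-calcium exchangers. Cyclic AMP is known to relax smooth muscle partly by lowering this calcium, and smooth muscle cells in culture are known to exchange part of their contractile calcium channels for others.

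Signals are log2 intensities with each array's 75th percentile set to 0, and changes are PGE2 minus control on that log2 scale with limma's standard error (2 arrays in each group). The share of non-control spots well above background ran from 47.9% to 53.8% by array, with no saturated spot among them. Across tested genes, which are not independent replicates, arrays of 1 group correlated at 0.974 and 0.978 and arrays of different groups at 0.943 to 0.958. The number of arrays limits the precision of every value. The labels call the cultures biological replicates but do not say how they were separated. The p-values therefore set each difference against the spread between these samples only, which limma combines with the spread of other genes.

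A gene was tested if a probe of it was well above background on both control arrays or on both PGE2 arrays. This held for 45 of the 82 members. A further 15 reached that signal on some arrays only, and 22 did not on any array. The 5 STIM and ORAI genes were all tested, whereas none of the 3 store regulators was. Phospholamban (Pln), which restrains the store's calcium pump, and the calsequestrins Casq1 and Casq2, which buffer calcium inside the store, stayed at background on all 4 arrays. The same held for all 3 probes of Ryr2 and all 3 of Ryr3, for the store pump gene Atp2a3, for Trpc1 (4 probes), and for Cacna1s, the pore of the skeletal muscle channel. No change was read from these probes. Several of them lay near a common value per array, as for Pln at -6.23 and -5.79 in control and -6.21 and -6.84 with PGE2, and such probes gave differences near -0.5 (Pln -0.51).

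**Figure D1:**
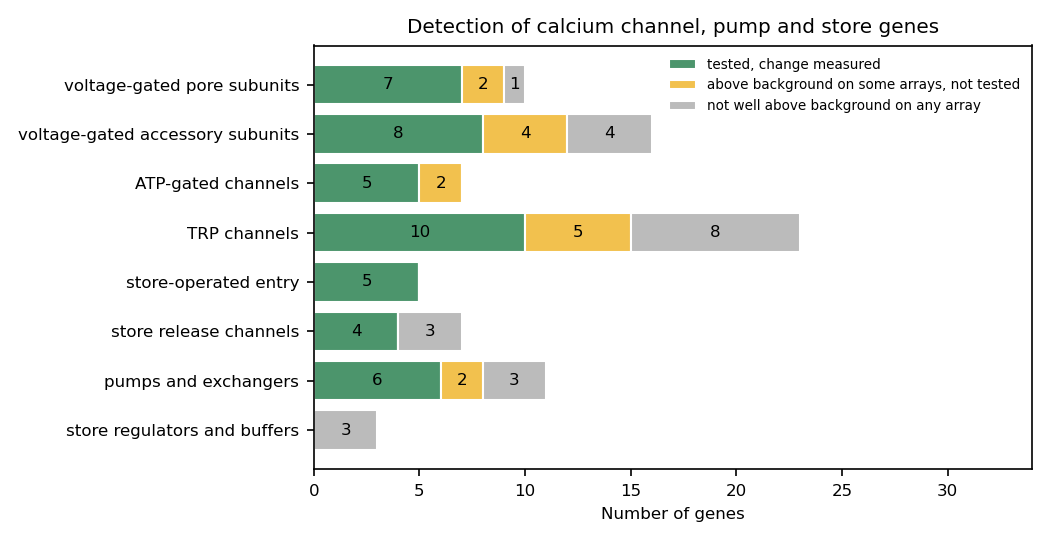
Number of calcium genes in each functional group (horizontal axis, count of genes), divided into genes that were tested, genes above background on some arrays but not tested, and genes at background on all 4 arrays. All 5 genes of store-operated entry were tested, and none of the 3 store regulators and buffers; the TRP group holds 23 genes, of which 10 were tested.

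With PGE2, 1 of the 45 tested members rose at an adjusted p under 0.05 and none fell (limma with Benjamini-Hochberg adjustment over 17660 genes or unnamed probes). Over all of these, 0.396% were called higher and 0.272% lower, 0.668% together. At an unadjusted p under 0.05, 5 members were higher and 3 lower, together 17.8% of the 45, against 7.31% higher, 10.5% lower and 17.8% together among all tested genes. Both PGE2 arrays lay above both control arrays in 12 members (26.7%, with 24.0% among all tested genes) and below both in 11 (24.4%, with 28.3%), together 51.1% of members and 52.2% of all tested genes. The median change was 0.10 over the 45 members and -0.03 over all tested genes, with 29 members above 0 and 16 below. The shares not overlapping lie near the background. The share called was 2.22% of members against 0.668% of all tested genes, but it rests on 1 gene, Trpv6. The share of members above 0 was 64.4%, against 47.3% of all tested genes, a difference that was not tested. Members kept through the PGE2 arrays alone, such as Trpv6, Trpv2 and Cacng2, were selected toward values above 0 by the filter. Among genes above background on all 4 arrays, 21 of 38 members were above 0 and 17 below (median 0.02). Of all such genes, 46.8% were above 0. On the authors' deposited scaling, which moved the median of all tested genes to 0.23, 31 members were above 0 and 14 below, and 70.4% of all tested genes were above 0.

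**Figure D2:**
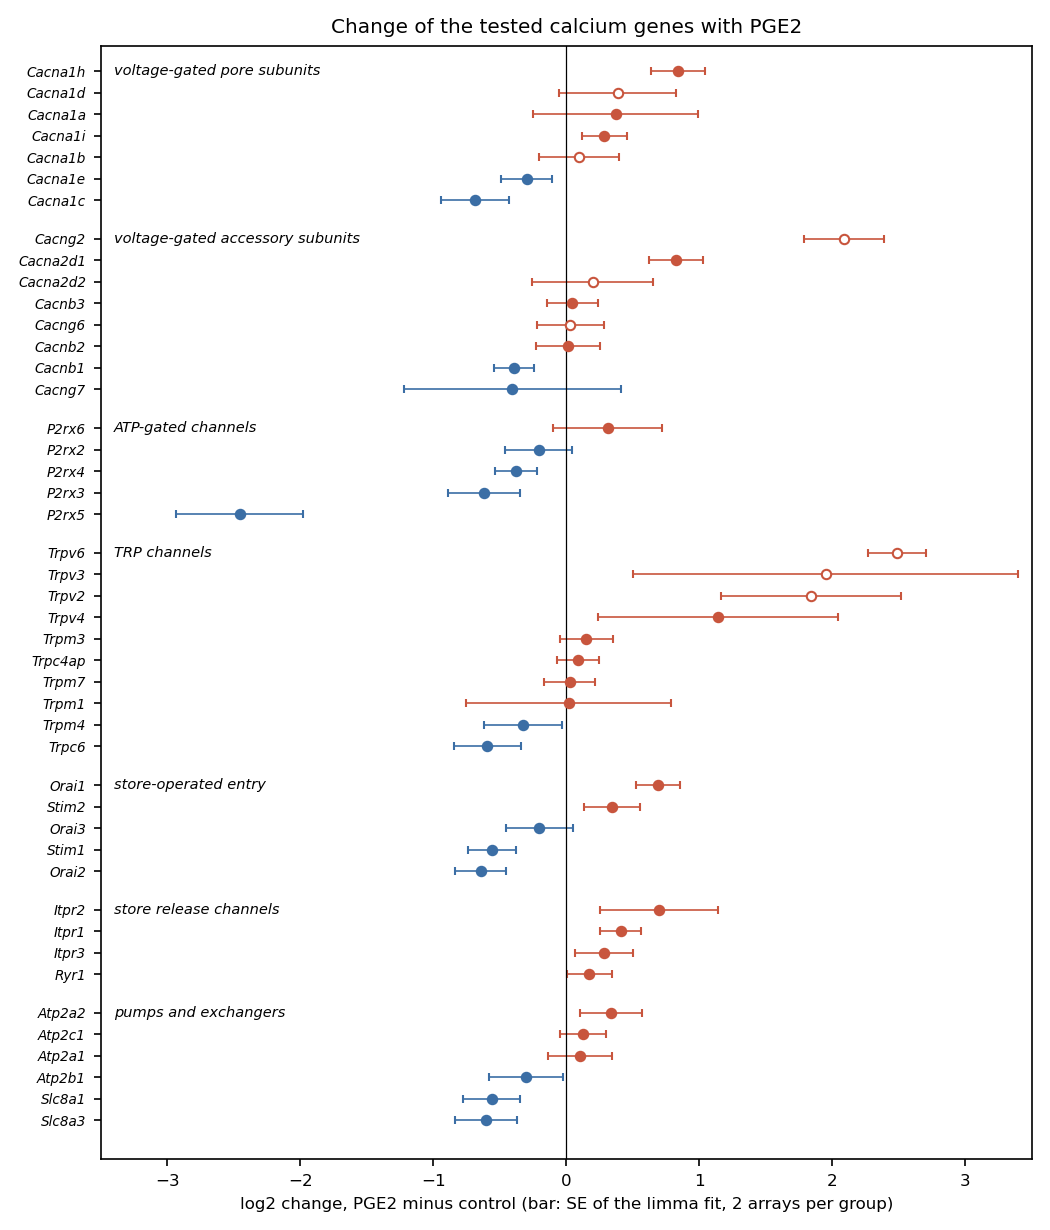
Change of each of the 45 tested calcium genes (log2, PGE2 minus control), ordered within functional groups. Points are fitted changes, bars are the standard error of the fit with 2 arrays per group, red and blue mark values above and below 0, and open points mark probes not above background on all 4 arrays. Trpv6 and Cacng2 lie farthest to the right among points with short bars, and P2rx5 lies farthest to the left.

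TRP channels are cation channels opened by lipids, stretch, temperature or calcium. Of 23 genes in the group, which counts Trpc4ap and Trpc5os, 10 were tested, Trpc4ap among them, and 1 of the 10 rose. The member that rose was Trpv6, which encodes a calcium-selective channel best known for calcium uptake in epithelia. Its signal was -4.40 and -4.50 on the control arrays, where it was not well above background, and -2.18 and -1.74 on the PGE2 arrays, where it was. Both PGE2 cultures were higher than both controls. The fit gave a difference of 2.49 ± 0.22 (adjusted p = 0.0465, limma). The control readings are background signal and the probe passed the filter through its PGE2 arrays alone, so this p sets PGE2 signal against background, and the size is given as a bound. The floor on each control array was the lowest signal of any probe clear of background, or that of the Trpv6 probe where higher, and against it Trpv6 was at least 3.63-fold higher with PGE2. The array holds 1 Trpv6 probe, so no second probe bears on the value, and its neighbour in the family, Trpv5, stayed at background on all 4 arrays. Of 13 alternative settings that could test it, 3 kept the call, with adjusted p from 0.0382 to 0.240 and changes from 1.18 to 2.74. Leaving out any 1 of the 4 arrays ended the call, with changes from 2.27 to 2.71.

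Trpv2, a stretch-sensitive channel of the same family, had signals of -5.11 and -3.60 in control, both not well above background, and -3.11 and -1.93 with PGE2, both above it. It was at least 2.46-fold higher by the same floor, but the control cultures differed widely from each other and the fitted change of 1.84 ± 0.68 did not pass (adjusted p = 0.283). Neither of its other 2 probes was above background in control, and 1 of them was so on 1 PGE2 array. Trpv4, an osmotic and shear-sensitive calcium channel, stood at -0.94 and 0.52 in control and at -0.13 and 1.98 with PGE2. In each group the second culture was the higher, and the groups overlapped (change 1.14 ± 0.90, adjusted p = 0.565). Its second probe gave 0.93 but was at background on both control arrays. Over the fits with 1 array left out, Trpv4 ranged from 0.08 to 2.19. Trpv3, a warmth-sensitive channel of skin, was at -5.62 in 1 control culture and at -1.56 in the other, against -1.22 and -2.06 with PGE2, so the first control alone stood apart (change 1.95 ± 1.45, adjusted p = 0.538), and without it the change was -0.078. Trpv3 is named here because its values were seen to differ between the controls.

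Among the other TRP genes, Trpc6, a diacylglycerol-activated channel of vascular smooth muscle, stood at -0.20 and -0.49 in control and at -0.68 and -1.19 with PGE2. Both treated cultures were lower, without passing the test (change -0.59 ± 0.25, adjusted p = 0.326). This rests on 1 of 3 Trpc6 probes, as the other 2 stayed at background throughout. Trpm4, a calcium-activated channel that passes sodium, stood at -0.32 ± 0.29 and Trpm7, a channel fused to a kinase that carries magnesium and calcium, at 0.03 ± 0.19 (adjusted p = 0.61 and 0.959). The sign of Trpm4 turned without control replicate 2 (0.03), and that of Trpm7 turned with quantile normalization, with normexp and without control replicate 1. Trpc4, another store- and receptor-linked channel, was above background on 1 PGE2 array only.

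**Figure D3:**
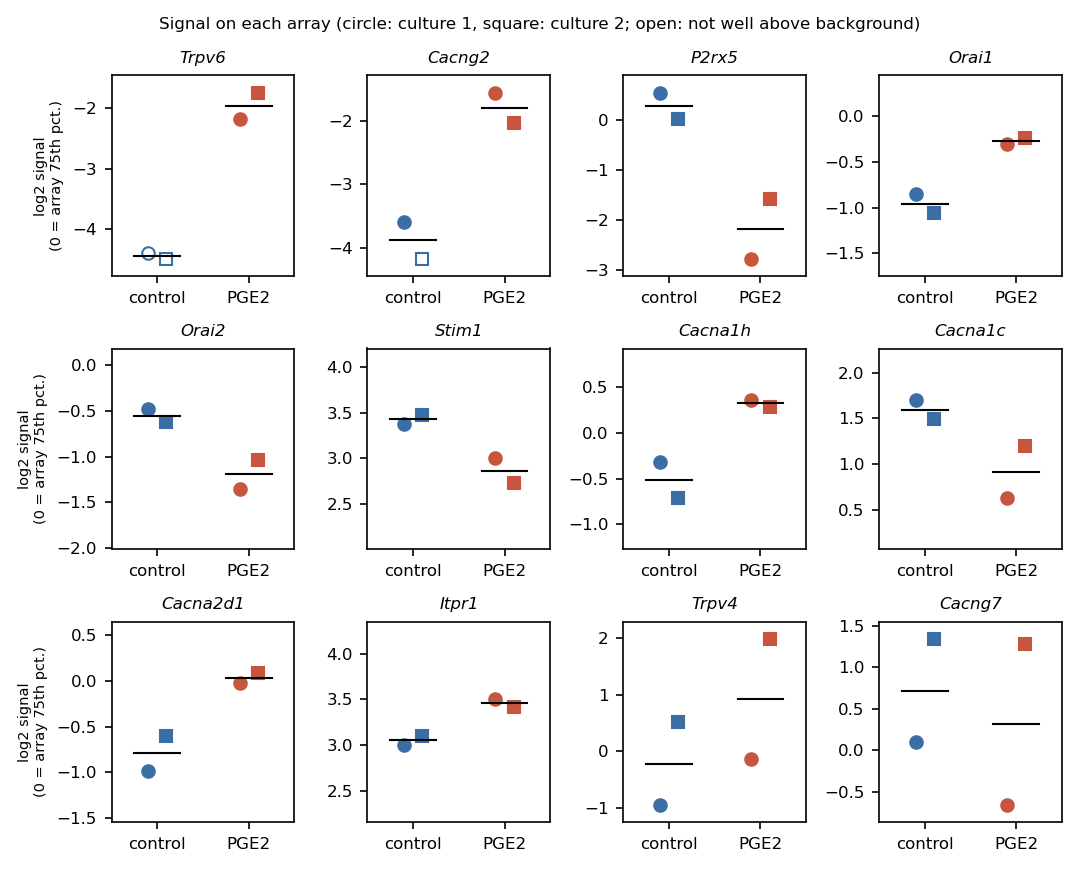
Signal on each array for 12 calcium genes (vertical axes, log2 intensity with the array's 75th percentile at 0; each panel spans its own range). Circles are the first and squares the second culture of a group, lines are group means (n = 2), and open symbols mark signals not well above background. Trpv6 and Cacng2 are higher and P2rx5 lower on both PGE2 arrays; in Trpv4 and Cacng7 the second culture is the higher in both groups.

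ATP-gated P2X channels let calcium in when ATP is released outside the cell, for example by sympathetic nerves. Of 7 genes, 5 were tested, 0 were called, and P2rx5 had the lowest value of all 45 tested members. P2rx5 encodes a subunit that joins other P2X subunits. Its signal was 0.54 and 0.02 in control and -2.77 and -1.57 with PGE2. Both treated cultures were well below both controls, and the treated cultures differed from each other by more than the controls did. The change was -2.45 ± 0.48, or 5.48-fold lower, and did not pass the test (adjusted p = 0.132, limma). The second P2rx5 probe gave -2.14 and was above background on both control arrays and on neither PGE2 array. Leaving out the second PGE2 culture gave -3.06 and leaving out the first gave -1.85, and the adjusted p lay between 0.0570 and 0.396 over 14 alternative settings.

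P2rx4, a slowly desensitizing subunit, stood at 3.03 and 3.13 in control and at 2.66 and 2.75 with PGE2, a small difference without overlap (-0.38 ± 0.16, adjusted p = 0.319) that had the same sign on all 3 of its probes (-0.45 to -0.15). The probe at -0.45 was kept through the control arrays alone, so its sign adds no support. P2rx3, the subunit of sensory neurons, was dim and lay at -0.62 ± 0.27 (adjusted p = 0.337). P2rx1, the subunit that carries the fast response of arterial muscle to ATP, was above background on 1 control and 1 PGE2 array and was not tested. P2rx7, whose channel is best known from immune cells, was above background on the second array of each group only, where its brightest probe read -2.13 in control and -2.90 with PGE2, against -6.16 and -6.18 on the first arrays.

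Voltage-gated channels open on depolarization, and their pore subunits fix the current type. Of 10 pore genes, 7 were tested and 0 were called. Cacna1c, the L-type pore that carries most contractile calcium entry in arteries, stood at 1.70 and 1.49 in control and at 0.62 and 1.19 with PGE2. Both treated cultures were below both controls (change -0.69 ± 0.26, adjusted p = 0.288). A second kept probe lay at -0.34, with overlapping groups. Cacna1h, a T-type pore that opens at more negative voltages, stood at -0.32 and -0.71 in control and at 0.36 and 0.29 with PGE2. It lay in the opposite direction, with both treated cultures above both controls (change 0.84 ± 0.20, or 1.79-fold, adjusted p = 0.172). Its other 3 probes did not reach the filter. Cacna1g, the other main T-type pore of smooth muscle, was above background on the second array of each group only, where 1 of its probes read -1.47 in control and -2.56 with PGE2. The remaining tested pores, Cacna1a, Cacna1b, Cacna1d, Cacna1e and Cacna1i, which are best known from neurons, were dim and lay between -0.30 and 0.39.

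Accessory subunits bring the pore to the membrane and tune it. Of 16 genes, 8 were tested and 0 were called. Cacng2, known as stargazin and best known for trafficking glutamate receptors, stood at -3.59 and -4.18 in control, the second not above background, and at -1.56 and -2.04 with PGE2. Both treated cultures were higher (change 2.08 ± 0.30), just outside the threshold (adjusted p = 0.0885, limma), and since only 1 of the 2 control arrays measured it, no fold is given. The fit with the replicate number as a block put it past the threshold (adjusted p = 0.0473), and it rests on 1 probe, as the second stayed at background throughout. The Cacng2 probe passed the filter through its PGE2 arrays alone, so its p-values set PGE2 signal partly against background.

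Cacna2d1, the alpha2-delta subunit found with Cacna1c in arteries, stood at -0.98 and -0.60 in control and at -0.02 and 0.08 with PGE2 (change 0.82 ± 0.20, adjusted p = 0.176). Its kept probes did not give 1 value. The brightest probe, made to a RefSeq message, gave 0.82. Other probes to RefSeq messages gave 0.52, at background on the first control array, and 1.18, at background on both control arrays. These were kept through the PGE2 arrays alone, so the filter favoured values above 0 and they add no support. Both probes of 1 Ensembl transcript gave 0.22 and 0.26, and a probe to a cDNA clone gave -0.62. The beta subunit genes Cacnb2 and Cacnb3 stood at 0.01 ± 0.24 and 0.04 ± 0.19, and Cacnb1 at -0.40 ± 0.15 (adjusted p = 0.983, 0.925 and 0.292). The sign of Cacnb2 turned under 4 of 14 alternative settings, and that of Cacnb3 without control replicate 2 (-0.13). Cacng7 read 0.09 and 1.34 in control and -0.66 and 1.28 with PGE2, so it followed the culture number more than the treatment (change -0.41 ± 0.81, turning to 0.22 without control replicate 2 and 0.57 without PGE2 replicate 1).

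When the store empties, STIM sensors in its membrane open ORAI channels at the cell surface. All 5 genes were above background on all 4 arrays and none was called, but their values did not point one way. Orai1, the main pore of this current, stood at -0.85 and -1.06 in control and at -0.30 and -0.24 with PGE2. Orai2, a pore subunit that can temper it, stood at -0.48 and -0.62 in control and at -1.35 and -1.03 with PGE2. Both treated cultures were thus higher than both controls for Orai1 (change 0.69 ± 0.17, or 1.61-fold, adjusted p = 0.171) and lower for Orai2 (change -0.64 ± 0.19, or 1.56-fold, adjusted p = 0.225).

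The calcium sensor Stim1 stood at 3.38 and 3.48 in control and at 3.0 and 2.7 with PGE2. The treated cultures were both lower (change -0.56 ± 0.18, adjusted p = 0.243), and its 3 kept probes gave -0.64 to -0.50. Stim2, the sensor that responds to smaller losses of store calcium, stood at 0.34 ± 0.21 (adjusted p = 0.464), with its probes at 0.31 and 0.34. Orai3 stood at -0.20 ± 0.25 (adjusted p = 0.709), and its sign turned on the authors' deposited scaling (0.06) and without control replicate 1 (0.07). The difference between Orai1 and Orai2 was not tested.

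Promoter sequences are shown for the member that rose and for the members of store-operated entry that had an unadjusted p under 0.05, since these point both ways. The windows are the 250 bases before the RefSeq start of each gene (build GRCm38.p6, written on the gene's own strand), and capitals mark TGACG on either strand, the core of the site bound by cyclic AMP response factors. The window of Trpv6 is chr6:41636406-41636655 (minus strand), that of Orai1 chr5:123014824-123015073 (plus), that of Orai2 chr5:136170657-136170906 (minus) and that of Stim1 chr7:102267569-102267818 (plus).
Trpv6: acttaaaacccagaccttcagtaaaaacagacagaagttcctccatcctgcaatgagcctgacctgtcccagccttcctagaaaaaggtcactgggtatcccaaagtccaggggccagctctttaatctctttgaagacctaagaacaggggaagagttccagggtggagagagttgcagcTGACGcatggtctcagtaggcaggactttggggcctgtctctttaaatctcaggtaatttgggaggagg
Orai1: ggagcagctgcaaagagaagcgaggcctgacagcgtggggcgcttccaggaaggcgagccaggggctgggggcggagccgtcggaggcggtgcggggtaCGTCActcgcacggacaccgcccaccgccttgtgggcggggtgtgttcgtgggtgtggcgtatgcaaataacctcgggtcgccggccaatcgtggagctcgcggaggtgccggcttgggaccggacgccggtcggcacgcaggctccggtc
Orai2: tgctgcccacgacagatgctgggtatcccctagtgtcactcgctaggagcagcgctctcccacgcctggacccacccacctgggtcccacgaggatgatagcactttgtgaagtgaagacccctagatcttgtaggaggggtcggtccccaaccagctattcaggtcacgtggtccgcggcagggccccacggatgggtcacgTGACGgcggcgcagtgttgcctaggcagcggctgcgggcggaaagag
Stim1: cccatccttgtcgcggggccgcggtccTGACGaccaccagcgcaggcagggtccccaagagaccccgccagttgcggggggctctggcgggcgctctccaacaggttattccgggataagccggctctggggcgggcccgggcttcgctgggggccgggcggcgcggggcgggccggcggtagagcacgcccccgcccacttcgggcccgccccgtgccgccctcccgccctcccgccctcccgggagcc
Each of the 4 windows held 1 TGACG, first base at -69 in Trpv6, -151 in Orai1, -47 in Orai2 and -223 in Stim1 relative to the start, although Trpv6 and Orai1 were higher with PGE2 and Orai2 and Stim1 lower. Windows were found for 65 of the 82 members. TGACG was in 15 of these 65 genes (23.1%) and in 19.8% of all 27025 genes with a window (17.8% of all windows). Among tested members with a window it was in 13 of 37 (35.1%), and the share over all tested genes was not counted. The windows of Stim2, Orai3 and Cacng2 held no TGACG. The full site TGACGTCA, which contains TGACG, was in 0 of the 65 and in 1.77% of all genes. The CArG box bound by serum response factor was found in Trpc6 and Trpv1 and in 1.62% of all genes. A match describes the letters of the window and is not a measured binding site.

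Calcium leaves the store through IP3 receptors, opened by a product of phospholipase C, and through ryanodine receptors, opened by calcium itself. Of 7 genes in the group, which counts Itpr3os, 4 were tested, 0 were called and all 4 had values above 0. Itpr1, the main IP3 receptor of vascular muscle, stood at 3.0 and 3.1 in control and at 3.5 and 3.4 with PGE2. Each treated culture was higher by a small step (change 0.41 ± 0.16, or 1.33-fold, adjusted p = 0.291), and all 4 of its probes were above 0, from 0.39 to 0.61. Itpr2 stood at 0.70 ± 0.45 with overlapping groups and Itpr3 at 0.29 ± 0.22 (adjusted p = 0.482 and 0.549). With 1 array left out they ranged from 0.11 to 1.28 and from 0.056 to 0.51. Ryr1, the ryanodine receptor of skeletal muscle, was the only one of the 3 that was tested, at 0.17 ± 0.17 (adjusted p = 0.632), on a probe to a cDNA clone. This rests on 1 of 3 Ryr1 probes, as the others, among them 1 to the RefSeq message, stayed at background on all 4 arrays.

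Of 11 genes of pumps and exchangers, 6 were tested and 0 were called. The store pump Atp2a2 (SERCA2) stood at 1.72 and 1.21 in control and at 1.78 and 1.83 with PGE2 (change 0.34 ± 0.23, adjusted p = 0.507), with probes from -0.14 to 0.34 and a range from 0.083 to 0.60 over the fits with 1 array left out. The plasma membrane pump Atp2b1, which expels calcium, stood at -0.30 ± 0.28 (adjusted p = 0.617), while its second probe gave 0.44 and the mean of both was 0.07. Atp2b4, another plasma membrane pump, was above background on the first array of each group only and was not tested. The Golgi pump Atp2c1 stood at 0.12 ± 0.17 (adjusted p = 0.739).

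Sodium-calcium exchangers swap calcium for sodium across the cell surface. The exchanger Slc8a1 stood at -3.26 and -3.51 in control and at -3.75 and -4.13 with PGE2 (change -0.56 ± 0.22, adjusted p = 0.297). Slc8a3 stood at 4.72 and 4.58 in control and at 4.29 and 3.80 with PGE2 (change -0.60 ± 0.23, adjusted p = 0.295). Both treated cultures lay below both controls in each. The second Slc8a3 probe and the other 3 Slc8a1 probes did not rise clear of background on any of the arrays, so both values rest on 1 probe.

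In 17 of the 45 tested members more than 1 probe passed the filter, and in 9 of these 17 the probes differed in sign. The probes kept 1 sign in P2rx5, P2rx4, Cacna1c, Stim1, Stim2, Itpr1, Itpr2 and Trpv4. For P2rx5 and Trpv4 the second probe was kept through 1 group alone, which fixed its sign, so it adds no support. Likewise, 1 P2rx4 probe was kept through the control arrays alone and 1 Itpr2 probe through the PGE2 arrays alone. The filter favoured the signs of these probes too, and they add no support. The probes of the other 9 crossed 0, among them those of Cacna2d1, Cacna1a and Atp2b1, whose probes spanned -0.62 to 1.18, -0.93 to 0.37 and -0.30 to 0.44.

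**Figure D4:**
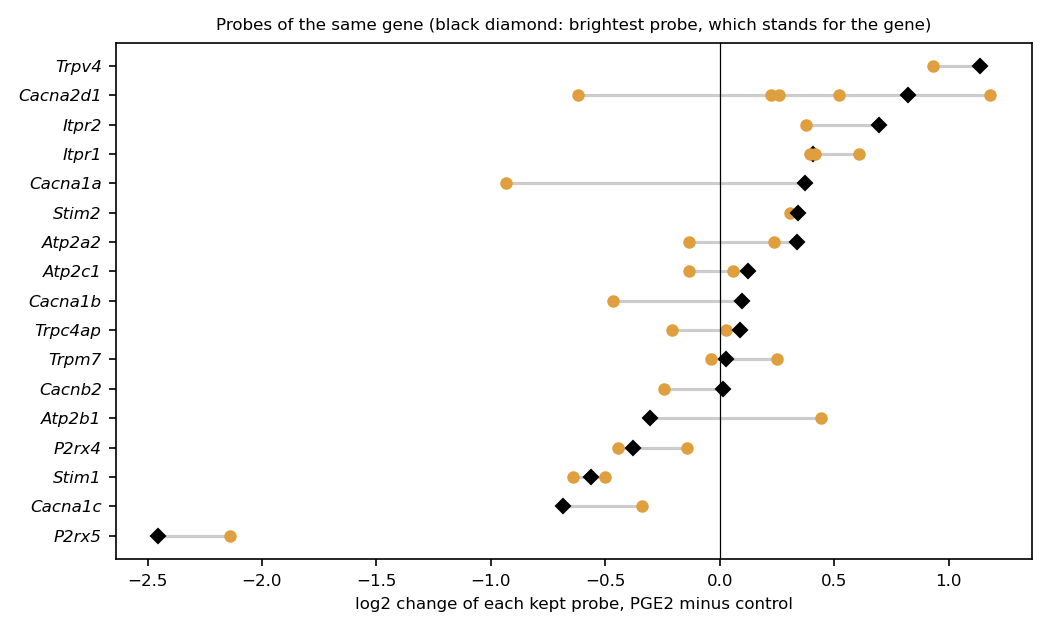
Change of every kept probe (log2, PGE2 minus control) for the 17 calcium genes with more than 1 kept probe. Each row is a gene, black diamonds are the brightest probe, which stands for the gene, and orange circles are its other probes. P2rx5, Stim1 and Itpr1 show probes on 1 side of 0, and those of Cacna2d1, Cacna1a and Atp2b1 lie on both sides.

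Some members differed between the first and second culture of both groups. The second culture was higher in both groups in 13 of the 45 tested members and the first in 16. The gap was over 1 log2 unit in both groups in 4 of the 45, Trpm1, Cacng7, Trpv2 and Trpv4, each with the second culture higher. For Trpv2 the control gap lies between readings that were both not well above background. The same shares over all tested genes were not counted, so these counts are not read as a trait of the calcium genes. Trpm1, a channel best known from melanocytes and retina, read -1.57 and -1.63 in the first control and PGE2 cultures and -0.11 and -0.02 in the second (change 0.02 ± 0.77, with a sign that turned when 1 array was left out), on 1 of its 8 probes. Trpm1 and Cacng7 are named because of this pattern, after their values were seen. Across all tested genes, the difference between second and first culture in control correlated at r = 0.424 with that in PGE2, a description across genes. Whether cultures of 1 number were handled together is not stated in the labels.

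The rest of the calcium pathway was described from 5 lists. Of 24 receptors that act through Gq, 10 were tested and 1 rose: Ptgfr, the receptor for prostaglandin F2 alpha, at least 2.25-fold (adjusted p = 0.0465, limma). Its probe was at background on both control arrays and passed the filter through the PGE2 arrays alone, so here too the p is against background. The list's median was -0.33. Lpar1, a lysophosphatidic acid receptor, stood at 1.24 ± 0.22 and Adra1d, an adrenergic receptor, at -0.64 ± 0.18 (adjusted p = 0.114 and 0.208). The call of Ptgfr held in 7 of 13 alternative settings. Of 16 G proteins and phospholipases C, 14 were tested and 0 were called (median -0.13). Plcg2, the phospholipase C of blood cells, stood at 2.14 ± 0.39 and Plcb1 at -0.69 ± 0.21 (adjusted p = 0.118 and 0.233). Plch2 read -1.38 and -3.68 with PGE2 and was at background on both control arrays with the same probe, so no exact difference is given (adjusted p = 0.262).

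Of 15 genes listed for mitochondrial calcium uptake, among them carriers that calcium regulates, all were tested and 1 rose (median -0.02). It was Slc25a25, a calcium-regulated carrier of ATP and magnesium, which read -0.47 and -0.88 in control and 1.81 and 1.64 with PGE2. The change was 2.40 ± 0.22 (adjusted p = 0.0465, limma), and its 4 kept probes gave 2.40 to 2.57. The call held in 6 of 14 alternative settings. The gate subunit Micu3 at 0.45 ± 0.17 and the carrier Slc25a23 at 0.57 ± 0.25 (adjusted p = 0.287 and 0.338), and the kept probes of each of these genes differed in sign. Of 25 store and junction partners on the array, 20 were tested and 0 were called (median -0.13). Jph2, which ties the store to the surface membrane, stood at -1.39 ± 0.34, Asph at -0.57 ± 0.22 and Calu, a calcium-binding protein of the secretory pathway, at 0.29 ± 0.16 (adjusted p = 0.172, 0.305 and 0.432).

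Of 30 genes of calmodulin, its kinases, calcineurin and NFAT, 27 were tested and 0 were called (median -0.07). Rcan2, an inhibitor of calcineurin, read 4.35 and 3.34 in control and -0.18 and 0.00 with PGE2, a change of -3.93 ± 0.39 just outside the threshold (adjusted p = 0.0558). Camk2n2, an inhibitor of calmodulin kinase II, stood at 1.54 ± 0.19 and Camkk2, a kinase of calmodulin kinases, at 1.08 ± 0.17 (adjusted p = 0.0745 and 0.101). Over all 5 lists, 2 genes rose and 0 fell, beside 0.396% called higher and 0.272% called lower among all tested genes.

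**Figure D5:**
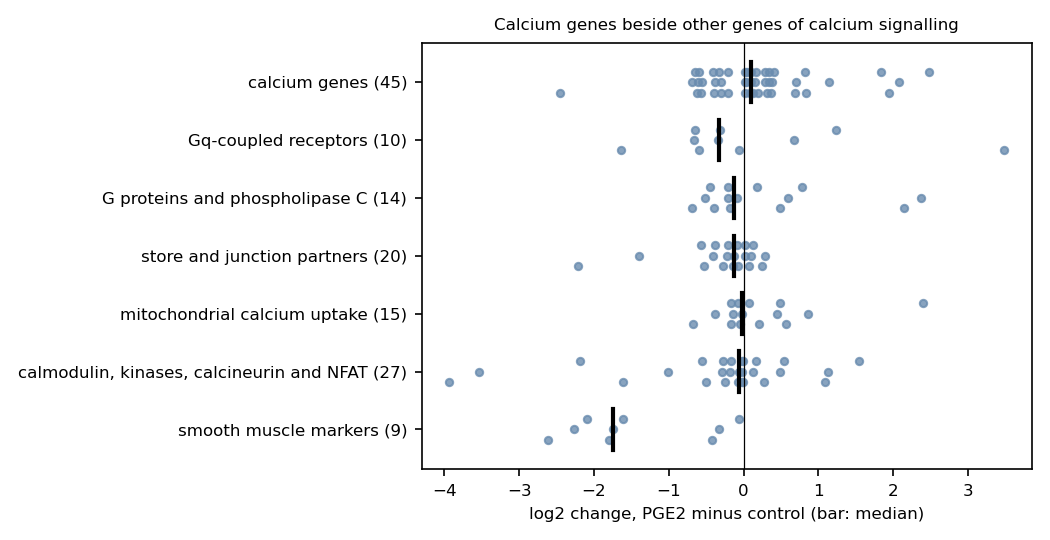
Change of each tested gene (log2, PGE2 minus control) in the calcium genes, in 5 further lists of calcium signalling and among smooth muscle markers, with the number of tested genes in brackets and a bar at the median. The medians of the calcium lists lie between -0.33 and 0.10, and that of the 9 smooth muscle markers at -1.75.

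Of 13 smooth muscle markers, 9 were tested and 0 were called, all 9 with values below 0 (median -1.75). Acta2, Tagln and Cnn1 were above background on all 4 arrays, while Myh11 was so on 1 control and 1 PGE2 array and Myocd on none. The summed signal of the list, in multiples of the array's 75th percentile, was 921 and 537 in control and 165 and 255 with PGE2. That of 8 fibroblast markers was 203 and 95.9 in control and 53.9 and 49.2 with PGE2, most of the control sum coming from Dcn (change -2.91). The median of its 6 tested genes was -0.04, with 3 above 0 and 3 below, Ly6a was called higher, and Dpt was not above background. That of 10 leukocyte markers was 77.2 and 63.7 against 59.2 and 39.8, most of it from Itgam (change -0.61). The median of its 7 tested genes was -0.36, with Spi1, at background on both PGE2 arrays, called lower, Cd68 at 2.09 and Csf1r at 0.98 (adjusted p = 0.109 and 0.338), and Adgre1, Lyz2 and Tyrobp not above background on any array. Spi1 passed the filter through its control arrays alone, so its call is against background. Sums for 8 endothelial markers were 0.949 and 1.07 against 0.64 and 0.832, with Tek, Tie1 and Emcn not above background. Those for 7 neuronal and Schwann markers were 63.8 and 48.3 against 52.7 and 35.3. The median of the 5 tested neuronal and Schwann genes was -0.34, with 1 above 0 and 4 below. Tubb3, the 1 above 0, was called higher, and Sox10 was not above background. Sums for 9 striated muscle markers were 0.932 and 1.53 against 1.18 and 1.29, with Myh7, Ckm and Myog not above background. The part of these markers in the values of the calcium genes was not tested.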

How the data were processed

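RNA from 4 cultures was measured on single-colour Agilent mouse arrays. The deposited scanner output holds background-subtracted processed intensities, made with Agilent Feature Extraction 11.5.1.1 per the file headers and 12.0.3.1 per the submitters' processing notes. The authors' deposited table holds the same intensities multiplied by a constant per array (0.945 to 1.07), with column medians from 32.7 to 42.9. Its 4 columns of detection calls were not used. The basis of the authors' constants is unknown.

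Here log2 processed intensity minus the array's 75th percentile over 59305 non-control spots was averaged over spots of a probe. A total of 158 probes with outlier flags were left out. Probes well above background on both arrays of a group were kept (26100 of 56605), and the kept probe brightest over all 4 arrays stood for its gene, giving 17660 tested genes or unnamed probes. Groups were compared with limma 3.58.1 in R 4.3.3, with no block and Benjamini-Hochberg adjustment at 0.05, on code tested on simulated data. Alternatives were quantile normalization, median centring, normexp with an offset of 50, the authors' table, 2 other filters, the mean of kept probes, leaving out each array, the replicate block and 2 other percentile scalings, the last chosen after seeing the data. The mean spot signal planned for normexp was not in the files used, so the median spot signal took its place. No explanation was tested.

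The members and lists were chosen with earlier results of these data known. Named were key members of each role whatever their result, every called member, up to 3 tested members per role and up to 3 tested genes per pathway list with the smallest unadjusted p, every called pathway gene, and a few members said in the text to be chosen for their values. Some genes are counted but not reported by name here. Promoter windows came from RefSeq (GRCm38.p6).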

Additional observations from a re-analysis of the deposited data

How the results depend on the processing

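With 2 arrays per group, the smallest adjusted p among called genes was 0.0438 and the largest 0.0492, so all calls lay just inside the threshold. Over all tested genes, 70 were called higher and 48 lower by limma. These became 0 and 0 on the authors' scaling (3284 and 919 at an unadjusted p under 0.05), 0 and 0 with no filter on dim probes (1007 and 1678), 39 and 15 for genes above background on all 4 arrays, and 0 and 0 with the percentile over probes detected on all arrays (1303 and 2198). Genes called lower were 77 with the percentile over averaged probes. Leaving out 1 array gave 0 to 98 higher and 0 to 76 lower, with none in either direction without control replicate 1 or control replicate 2. The cause of these shifts was not tested.

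The count of calcium genes called higher, 1, became 0 with quantile normalization, normexp, the authors' scaling, no filter, the filter on all 4 arrays, the percentile over detected probes and each left-out array (0 to 0). The filter on all 4 arrays removes Trpv6 itself. No calcium gene was called lower under any of 14 alternatives. The members' median, 0.10, was 0.35 on the authors' scaling, where the median of all genes moved to 0.23. With no filter, where all 82 members entered, it was -0.21, and the median of all genes moved to -0.33. The members' median ranged from 0.03 to 0.11 with 1 array left out.

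With the replicate number as a block, 88 genes were called higher and 84 lower (49 and 35 shared with the fit without it). The 1 calcium gene called was then Cacng2 in place of Trpv6 (adjusted p = 0.0547). Both genes passed the filter through their PGE2 arrays alone. The labels do not say that numbers pair the cultures, and only 2 pairs exist.

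Of 49 named genes with a value, 9 changed sign under some alternative. Atp2b1 was 0.069 and Cacnb2 -0.11 as the mean of kept probes, Cacnb2 was -0.0074 with the percentile over detected probes, Orai3 was 0.056 on the authors' scaling, and Trpm7 was -0.0052 with quantile normalization and -0.015 with normexp. Trpm1 was -0.0046 with normexp and -0.0043 with the percentile over detected probes. With 1 array left out, changes ranged from -0.62 to 0.017 for Atp2b1, -0.21 to 0.24 for Cacnb2, -0.13 to 0.22 for Cacnb3, -0.47 to 0.068 for Orai3, -0.68 to 0.034 for Trpm4, -0.15 to 0.20 for Trpm7, -1.38 to 0.57 for Cacng7, -0.79 to 0.82 for Trpm1 and -0.078 to 3.98 for Trpv3. In all, 24 of the 49 moved by over 1.5 times or turned in sign when 1 array was left out, among them Cacna1c (-0.97 to -0.40) and Stim2 (0.19 to 0.50). Probes near background limit Trpv6, Trpv2 and Cacng2 to bounds or to single arrays in control.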
